A study of Mus musculus with 24 samples.

Results

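A set of 8 genes of lung macrophages, monocytes and type 2 myeloid cells, out of 18470 gene rows, was followed across 24 RNA sequencing libraries of sorted mouse memory B cells. The 8 were Chil3, Lyz2, Ctsd, Cd68, Retnla, Ccr2, Clec10a and Tyrobp. They were taken by gene symbol, and all 8 had a row and passed the filter on low counts. Mice had been made allergic with intranasal extract of house dust mites, and the same allergen was given again weeks later to recall the memory response. Class-switched memory B cells (csMBC in the labels) were then sorted into 3 populations, 2 from lung by the surface proteins CCR6 and CD69 and 1 labelled circulating. The libraries formed 6 groups of 4, with SCAP cKO and WT mice each giving lung cells positive for both proteins (lung CCR6+CD69+), lung cells negative for both (lung CCR6-CD69-) and circulating cells. SCAP cKO mice carried SCAP fl/fl with hCD20-TamCre, a tamoxifen-activated Cre recombinase under a human CD20 promoter, and had SCAP deleted before the recall. WT mice carried SCAP +/+ with the same hCD20-TamCre, so that Cre was present in all 6 groups. The labels give lung B cells as the source of every library, circulating ones included, and do not give age, sex or the animal behind each library. Replicates 1 and 2 of each group were batch 1 and replicates 3 and 4 were batch 2. Nothing in the labels says that replicates came from separate animals, so each p-value below rests on the spread among libraries, which may be technical.

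Chil3 encodes Ym1, a chitinase-like protein that alveolar macrophages of the mouse make in quantity and that type 2 cytokines induce. Lyz2 encodes lysozyme M of monocytes, macrophages and neutrophils, Ctsd the lysosomal aspartic protease cathepsin D that most cells contain, and Cd68 the lysosomal glycoprotein macrosialin. Retnla encodes the secreted protein RELM-alpha, a product of macrophages exposed to IL-4 or IL-13. Ccr2 encodes the receptor for the chemokine CCL2, by which classical monocytes leave the bone marrow. Clec10a encodes a galactose-binding C-type lectin of dendritic cells and macrophages. Tyrobp encodes DAP12, an adapter with an activation motif that passes on signals from receptors of myeloid, natural killer and plasmacytoid dendritic cells. None of the 8 is a classical B cell marker, and in bulk RNA fewer cells of a type and less RNA per cell cannot be told apart.

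Library totals ran from 129025 to 8566243 counts. B cell identity genes, 13 of 25 listed with a row, summed to between 13461 and 40473 CPM (the gene's share of a library's counts, scaled to 1e6) in the 24 libraries. That sum includes the MHC class II genes Cd74 and H2-Aa, which other antigen-presenting cells also express, so it does not measure B cell content. Scap, the targeted gene, had 43.5 to 138 CPM in SCAP cKO and 66.2 to 134 CPM in WT lung CCR6+CD69+ libraries. It had 0 to 139 CPM in SCAP cKO and 115 to 170 CPM in WT lung CCR6-CD69- libraries, and 121 to 446 CPM in SCAP cKO and 0 to 203 CPM in WT circulating libraries. Those ranges overlapped in all 3 populations, and a gene-level count does not show whether the deleted exons were among those counted, so it does not check the genotype labels. In 2 libraries, SCAP cKO lung CCR6-CD69- replicate 1 and WT lung CCR6-CD69- replicate 2, Chil3 had the most counts of any gene. In another 2, SCAP cKO circulating replicate 3 and SCAP cKO lung CCR6+CD69+ replicate 3, Chil3 was nearly missing. Under 500000 counts were held by 2 libraries, SCAP cKO lung CCR6-CD69- replicate 4 with 129025 and WT circulating replicate 2 with 356782.

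The 250 bases before the annotated start of 4 members are shown because Lyz2, and less firmly Ctsd, moved with Chil3 across libraries and Retnla did not pass that test. They are RefSeq sequence on build GRCm38.p6, matched by symbol and not by position, since the submitters' processing notes name mm39. Each is written 5′ to 3′ on the gene's own strand, and capitals mark matches to 3 motifs searched on both strands, the ETS core GGAAGT, which reads as ACTTCC where it lies on the opposite strand, the STAT6 spacing TTCNNNNGAA and the E-box CACGTG. The window of Chil3 is chr3:106167565-106167814 on the minus strand, that of Lyz2 chr10:117282273-117282522 on the minus strand, that of Ctsd chr7:142387828-142388077 on the minus strand and that of Retnla chr16:48842359-48842608 on the plus strand.
Chil3: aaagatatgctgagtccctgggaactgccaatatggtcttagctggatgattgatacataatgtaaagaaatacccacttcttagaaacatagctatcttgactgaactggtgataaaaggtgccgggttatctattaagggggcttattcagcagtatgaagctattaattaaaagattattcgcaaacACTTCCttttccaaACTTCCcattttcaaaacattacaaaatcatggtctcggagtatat
Lyz2: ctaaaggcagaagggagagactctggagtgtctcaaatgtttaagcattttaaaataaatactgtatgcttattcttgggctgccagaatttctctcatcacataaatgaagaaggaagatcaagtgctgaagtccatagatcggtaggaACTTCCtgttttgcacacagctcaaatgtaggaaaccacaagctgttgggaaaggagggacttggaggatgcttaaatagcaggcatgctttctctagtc
Ctsd: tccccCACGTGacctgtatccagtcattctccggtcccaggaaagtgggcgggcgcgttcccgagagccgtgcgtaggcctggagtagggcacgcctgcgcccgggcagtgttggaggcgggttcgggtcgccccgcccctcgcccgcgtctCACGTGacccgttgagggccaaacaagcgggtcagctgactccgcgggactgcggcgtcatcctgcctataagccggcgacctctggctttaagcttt
Retnla: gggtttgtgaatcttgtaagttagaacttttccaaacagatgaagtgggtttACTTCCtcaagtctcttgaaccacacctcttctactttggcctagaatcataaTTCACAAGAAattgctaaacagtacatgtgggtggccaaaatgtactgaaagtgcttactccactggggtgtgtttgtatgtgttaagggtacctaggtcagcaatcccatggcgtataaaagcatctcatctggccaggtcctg
The Chil3 window holds 2 matches to the ETS core, at -60 to -55 and -46 to -41 from the start, and the Lyz2 window holds 1 at -100 to -95. The Ctsd window holds no ETS core and 2 E-boxes, and the Retnla window holds 1 ETS core and 1 match to the STAT6 spacing, TTCACAAGAA. The same searches of the windows of Cd68 and Ccr2 found none of the 3 motifs. Of 32851 windows of this length, 19.7% hold the ETS core, 5.85% the STAT6 spacing and 6.02% the E-box. No matches in these windows overlapped, and a match describes letters only.

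Chil3 varied from 0.737 to 32558 CPM over the 24 libraries, while the medians of the 6 groups ran from 306 to 2764 CPM. In the order of replicates 1 to 4, Chil3 had 320, 292, 12.5 and 1895 CPM in SCAP cKO lung CCR6+CD69+ libraries, against 246, 260, 2599 and 613 CPM in WT ones. It had 32558, 793, 1746 and 3782 CPM in SCAP cKO lung CCR6-CD69- libraries, against 446, 28598, 3503 and 1121 CPM in WT ones. It had 571, 913, 0.737 and 3114 CPM in SCAP cKO circulating libraries, against 689, 1309, 1336 and 351 CPM in WT ones. One library of each genotype in lung CCR6-CD69- lay far above all others, and the ranges of the 6 groups overlapped. Ranked by median, both lung CCR6-CD69- groups came first, with 2764 CPM in SCAP cKO and 2312 CPM in WT, and both lung CCR6+CD69+ groups last, with 306 CPM in SCAP cKO and 436 CPM in WT. Each neighbour in that order overlapped the next.

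Chil3 took 3.26% of all counts in SCAP cKO lung CCR6-CD69- replicate 1 (Wilson 95% interval 3.24% to 3.27%) and 2.86% in WT lung CCR6-CD69- replicate 2 (2.82% to 2.90%). These intervals cover counting error only. The 8 genes together took 5.53% of counts in the SCAP cKO library and 4.02% in the WT library. Relative to the median of the other 22 libraries, 741 CPM, Chil3 stood 43.9-fold higher in the SCAP cKO library and 38.6-fold higher in the WT library. The next highest library, the shallow SCAP cKO lung CCR6-CD69- replicate 4, was 5.10-fold above that median, with 488 Chil3 counts.

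Lyz2 was highest in the same 2 libraries. It had 13293 CPM in SCAP cKO lung CCR6-CD69- replicate 1 and 495, 372 and 984 CPM in that group's replicates 2 to 4, against 302, 5551, 626 and 551 CPM in WT replicates 1 to 4. In lung CCR6+CD69+ libraries it had 213, 175, 19.2 and 686 CPM in SCAP cKO, against 236, 115, 453 and 337 CPM in WT. In circulating libraries it had 252, 1313, 51.6 and 887 CPM in SCAP cKO, against 468, 1348, 448 and 356 CPM in WT. The Chil3-led libraries were 32.4-fold (SCAP cKO) and 13.5-fold (WT) above the median of the other 22, so that Lyz2 was raised less than Chil3 in both. Its 2 lowest libraries were those in which Chil3 was nearly missing. Per 100 Chil3 counts there were 40.8 Lyz2 counts in the SCAP cKO Chil3-led library and 19.4 in the WT one, so the 2 genes did not stand in 1 ratio.

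**Figure D1:**
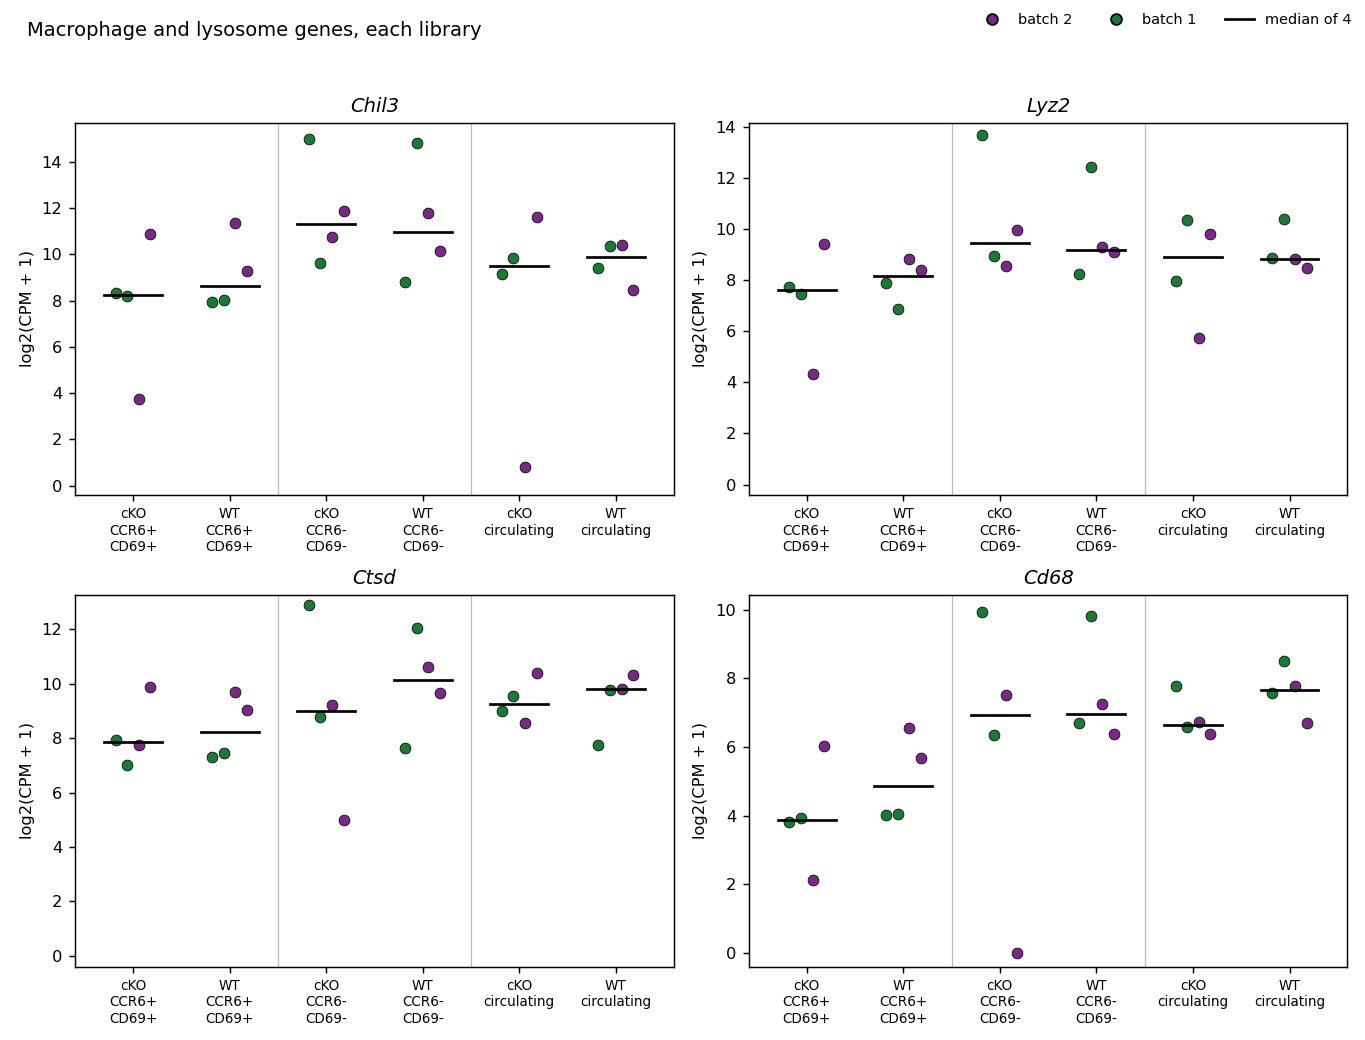
Level of Chil3, Lyz2, Ctsd and Cd68 in each library as log2(CPM + 1) by group, SCAP cKO left of WT within each sorted population, with replicates 1 to 4 from left to right, batch 2 in purple, batch 1 in green and a bar at the median of 4 libraries. SCAP cKO lung CCR6-CD69- replicate 1 and WT lung CCR6-CD69- replicate 2 are the 2 highest libraries in all 4 panels (Chil3 32558 and 28598 CPM).

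Ctsd and Cd68, the 2 lysosomal members, were also highest in these libraries. Ctsd had 7573, 440, 598 and 31.0 CPM in SCAP cKO lung CCR6-CD69- libraries, against 199, 4226, 1563 and 805 CPM in WT ones. It had 245, 127, 213 and 933 CPM in SCAP cKO lung CCR6+CD69+ libraries, against 156, 173, 839 and 522 CPM in WT ones. It had 510, 744, 380 and 1349 CPM in SCAP cKO circulating libraries, against 213, 872, 905 and 1286 CPM in WT ones. Outside the 2 high libraries Ctsd stayed between 31.0 and 1563 CPM, and its level in SCAP cKO circulating replicate 3, where Chil3 had 1 count, was 380 CPM. The 2 high libraries were 14.7-fold (SCAP cKO) and 8.18-fold (WT) above the median of the others.

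Cd68 had 981, 80.9, 181 and 0 CPM in SCAP cKO lung CCR6-CD69- libraries, against 102, 894, 152 and 82.1 CPM in WT ones. It had 13.1, 14.1, 3.36 and 64.6 CPM in SCAP cKO lung CCR6+CD69+ libraries, against 15.2, 15.5, 92.2 and 49.9 CPM in WT ones. It had 219, 94.0, 105 and 82.2 CPM in SCAP cKO circulating libraries, against 188, 362, 217 and 102 CPM in WT ones. All 4 circulating libraries lay above all 4 lung CCR6+CD69+ libraries in each genotype. The Chil3-led libraries stood 11.2-fold (SCAP cKO) and 10.3-fold (WT) above the median of the other 22, and the highest of those, WT circulating replicate 2, 4.15-fold.

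The remaining 4 members were not at their highest in the Chil3-led libraries. Retnla ranked 4th of 24 in the SCAP cKO one (17.2 CPM, 80 counts) and 3rd in the WT one (194 CPM, 132 counts), behind WT circulating replicates 1 and 2. Both values were above the median of the other 22 libraries, 16.0-fold in SCAP cKO and 180-fold in WT, but that median was only 1.08 CPM. Tyrobp ranked 4th in the SCAP cKO one (781 CPM) and 5th in the WT one (656 CPM), which is 5.02-fold and 4.22-fold above the median of the others, behind 3 circulating libraries. Clec10a ranked 7th (53.7 CPM) and 10th (27.9 CPM) in the same order, which is 6.16-fold and 3.21-fold the median of the others, 8.71 CPM. Ccr2 had 22.0 CPM in the SCAP cKO one and 52.9 CPM in the WT one, which is 0.507-fold and 1.22-fold the median of the others, 43.4 CPM. The monocyte receptor was thus not raised with Chil3 in either library.

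Other macrophage genes were high in the same libraries, counted on lists without the 8 members. Alveolar macrophage markers, 18 of 30 with a row, summed to 5571 CPM in the SCAP cKO Chil3-led library and 4080 CPM in the WT one, against a median of 699 and a maximum of 3077 CPM in the other 22. Of the 14 of these with at least 100 counts over all libraries, 9 had their highest CPM in one of the 2 libraries. So did 10 of 12 tissue macrophage and 6 of 11 monocyte markers, against 7.63% of 7231 rows with as many counts. Those counts include the 2 libraries, so a gene could pass through them alone. These shares are therefore a description and not a test. Mrc1, the mannose receptor, had 557 CPM in the SCAP cKO library and 572 CPM in the WT one, and the complement gene C1qa had 948 and 429 CPM in the same order. The scavenger receptor Marco had 0 counts in both, and Siglecf, the alveolar macrophage and eosinophil lectin, had 6.68 CPM in the SCAP cKO one and 48.5 CPM in the WT one. B cell identity genes summed to 27267 CPM in the SCAP cKO library and 24652 CPM in the WT one, against a median of 26436 CPM in the other 22. Natural killer markers without the members summed to 676 CPM and 421 CPM in the same order, above the median of 133 CPM of the other 22 libraries and below their maximum of 4547 CPM, and each was the highest of its own group. Whether cells or free RNA carried these transcripts was not tested.

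**Figure D2:**
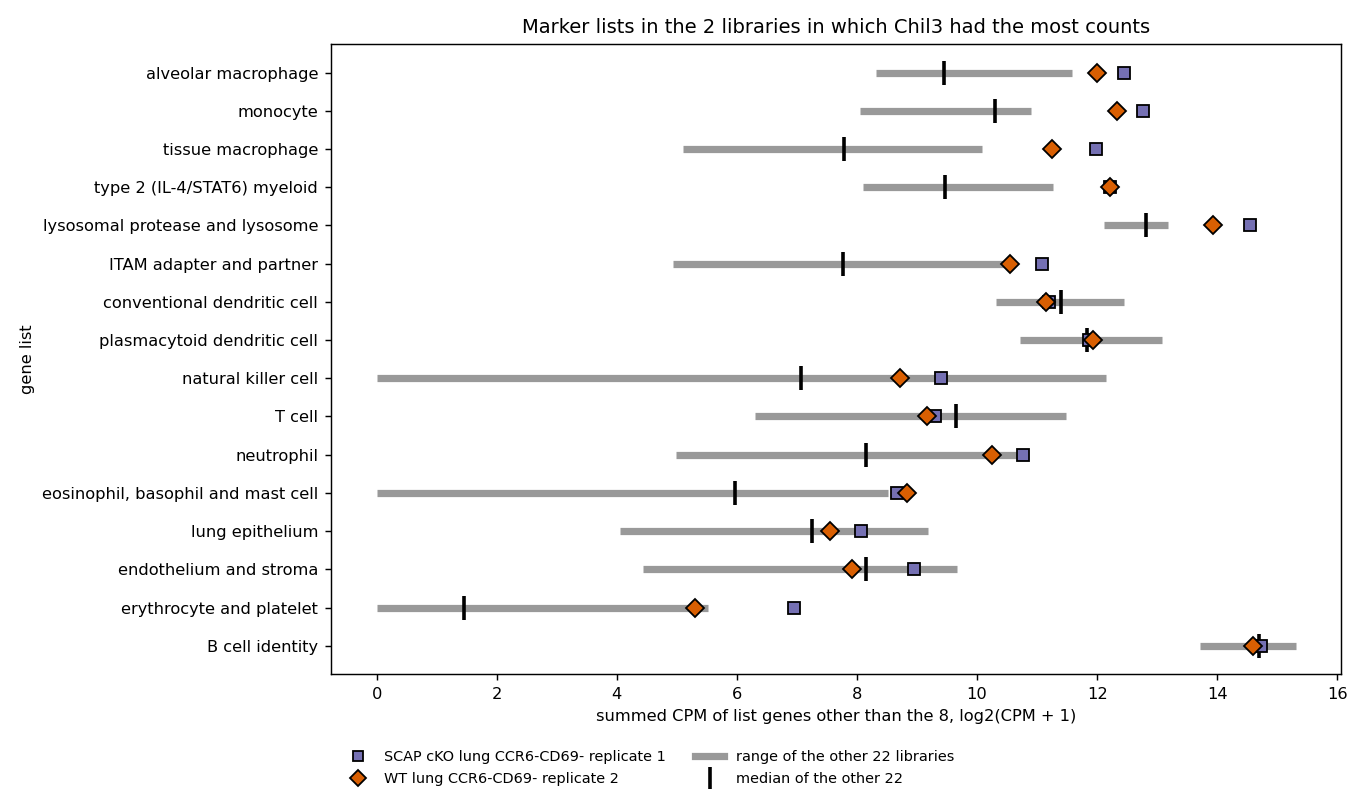
Summed CPM of the genes of 16 marker lists, the 8 members left out, as log2(CPM + 1), in SCAP cKO lung CCR6-CD69- replicate 1 (squares) and WT lung CCR6-CD69- replicate 2 (diamonds), with the range (grey bars) and median (black ticks) of the other 22 libraries. Both libraries exceed the grey bar for the alveolar macrophage list (5571 and 4080 CPM against at most 3077) and lie inside it for B cell identity.

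At the other end, Chil3 had 1 count (0.737 CPM) in SCAP cKO circulating replicate 3 and 26 counts (12.5 CPM) in SCAP cKO lung CCR6+CD69+ replicate 3, while the lowest of the other 22 libraries had 246 CPM. In SCAP cKO circulating replicate 3 the other members were counted, with 105 CPM of Cd68, 475 CPM of Ccr2, 265 CPM of Clec10a and 515 CPM of Tyrobp, but no Retnla. That library was therefore high in Ccr2, Clec10a and Tyrobp with almost no Chil3. The smallest library, SCAP cKO lung CCR6-CD69- replicate 4, was the reverse, with 488 counts of Chil3 and 127 of Lyz2, 4 of Ctsd, and 0 of Cd68, Retnla, Ccr2, Clec10a and Tyrobp. A count of 0 there allows up to 23.3 CPM (3 counts), so levels like those of Cd68 in its group's other replicates would have been seen, and a Ccr2 level of 22.0 CPM might not have been.

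Across the 24 libraries only Lyz2 followed Chil3 under each alternative tried. Pearson's r of log2 CPM between Lyz2 and Chil3 was 0.89 and Spearman's rho 0.88, both with an adjusted permutation p of 7e-05 over 7 relations (two-sided, 100000 resamples, the smallest they can give). Without the 2 libraries farthest from the median of Chil3, those in which it was nearly missing, r was 0.90, and without the 2 Chil3-led libraries it was 0.85. Within batch 2 it was 0.91 (12 libraries, adjusted permutation p 0.0286) and within batch 1 it was 0.96 (adjusted permutation p 7e-05). On values centred on group and batch means it was 0.89.

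Ctsd followed Chil3 with r 0.51 (adjusted permutation p 0.0469) and rho 0.65 (adjusted permutation p 0.00318), and r was 0.64 without the 2 libraries of least Chil3. With a prior count of 0.5 in place of 2 its r no longer passed (0.49, adjusted permutation p 0.0587). Its r was lower within batch 2 and without the Chil3-led libraries. Both of those libraries are in batch 1, and batch 1 without them was not tested. Within batch 2 r was 0.19 (adjusted permutation p 0.732), within batch 1 0.96 (adjusted permutation p 7e-05), and without the Chil3-led libraries 0.25 (adjusted permutation p 0.609), where rho remained 0.55 (adjusted permutation p 0.03). In batch 2 the shallow SCAP cKO lung CCR6-CD69- replicate 4, with 4 counts of Ctsd beside a high share of Chil3, and SCAP cKO circulating replicate 3, with 1 count of Chil3, lay off the line. For Cd68 r was 0.39 and rho 0.42, which did not pass (adjusted permutation p 0.139 and 0.1). Its rho on values centred on group and batch means was 0.57 and did pass (adjusted permutation p 0.00959). That permutation shuffled centred values freely, though centring ties values of a group together, so its p may be too small. The r of Cd68 was 0.09 within batch 2 and 0.85 within batch 1, Chil3-led libraries included (adjusted permutation p 7e-05).

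Retnla, Ccr2, Clec10a and Tyrobp did not show a relation to Chil3 that passed the test. Their r over 24 libraries was 0.36 for Retnla, 0.02 for Ccr2, -0.06 for Clec10a and 0.09 for Tyrobp, with adjusted permutation p between 0.153 and 0.922. Leaving out the 2 libraries of least Chil3 gave 0.27, 0.06, 0.05 and 0.17 in the same order. Within batch 2 the values were 0.31, -0.10, -0.37 and -0.24 and within batch 1 0.48, 0.26, 0.32 and 0.54, none of which passed. By rank, Ccr2 and Tyrobp did pass within batch 1, with rho 0.68 (adjusted permutation p 0.0261) and 0.71 (adjusted permutation p 0.0221). Retnla had rho 0.46 on centred values (adjusted permutation p 0.0454). Centring ties values of a group together and the permutation ignored that, so this p may be too small to count as a pass. For Ccr2 and Tyrobp the pooled libraries and the ranks within batch 1 thus gave different calls.

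**Figure D3:**
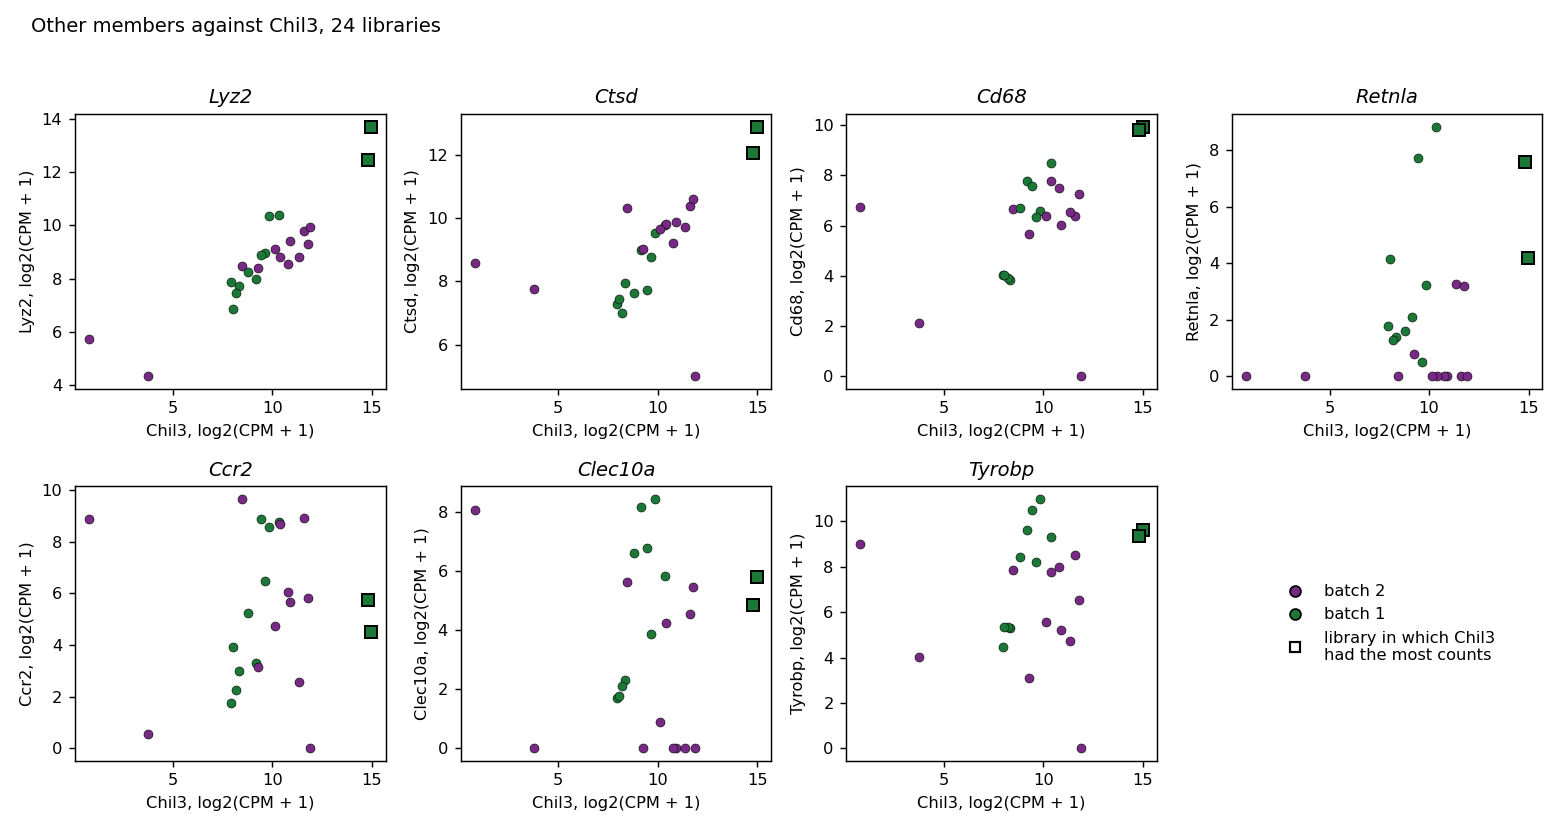
Level of the other 7 members (y axes) against Chil3 (x axes) in the 24 libraries, as log2(CPM + 1), with batch 2 in purple, batch 1 in green and squares for the 2 Chil3-led libraries. Lyz2 rises with Chil3 over the whole range (r 0.89), whereas Ccr2 (r 0.02), Clec10a (r -0.06) and Tyrobp (r 0.09) reach their highest values at intermediate Chil3.

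Of all genes tested, those most like Chil3 by Pearson's r over the 24 libraries, which share depth and batch, were Lyz2 (0.89), the beta-glucan receptor gene Clec7a (0.88), the kinase gene Sgk1 (0.88), Tgfbi (0.85) and the fibronectin gene Fn1 (0.82). Ctsd was most like Lamp2 (0.87), a lysosomal membrane protein gene, Fcgr3 (0.85) and Cd68 (0.84). Tyrobp was most like Fcer1g (0.93), which encodes another adapter with an activation motif, followed by Pltp (0.91), Ccnd1 (0.89), Dll4 (0.89) and Ptprs (0.88). Clec10a was most like Ccnd1 (0.86), Pltp (0.86) and Tyrobp (0.85), and Ccr2 was most like Ptprs (0.88), Selplg (0.86), Lifr (0.84) and Cd4 (0.83). No gene was shared between the 5 nearest to Chil3 and the 5 nearest to Tyrobp, Clec10a or Ccr2.

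Tyrobp was lowest in lung CCR6+CD69+ libraries and highest in circulating ones in both genotypes. It had 38.4, 39.5, 15.4 and 35.9 CPM in SCAP cKO lung CCR6+CD69+ libraries, against 20.9, 39.4, 25.3 and 7.59 CPM in WT ones. It had 781, 295, 256 and 0 CPM in SCAP cKO lung CCR6-CD69- libraries, against 340, 656, 91.9 and 46.5 CPM in WT ones. It had 782, 2032, 515 and 361 CPM in SCAP cKO circulating libraries, against 1424, 628, 219 and 228 CPM in WT ones. The ranges of lung CCR6+CD69+ and circulating libraries were far apart, and those of lung CCR6+CD69+ and CCR6-CD69- libraries were apart in WT but not in SCAP cKO, where the shallow replicate 4 had no count.

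Ccr2 stayed between 0.480 and 49.7 CPM in lung CCR6+CD69+ libraries and between 384 and 809 CPM in 7 of 8 circulating ones. It had 6.90, 3.83, 0.480 and 49.7 CPM in SCAP cKO lung CCR6+CD69+ libraries, against 2.33, 14.0, 4.95 and 7.95 CPM in WT ones. It had 22.0, 88.0, 66.2 and 0 CPM in SCAP cKO lung CCR6-CD69- libraries, against 37.0, 52.9, 55.8 and 26.0 CPM in WT ones. It had 8.77, 384, 475 and 490 CPM in SCAP cKO circulating libraries, against 474, 437, 412 and 809 CPM in WT ones. The 3 WT populations did not overlap with each other. In SCAP cKO, circulating replicate 1 at 8.77 CPM and lung CCR6+CD69+ replicate 4 at 49.7 CPM lay inside the ranges of the other populations.

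Clec10a was barely counted in lung CCR6+CD69+ libraries. It had 3.94, 3.35, 0 and 0 CPM in SCAP cKO lung CCR6+CD69+ libraries, against 2.22, 2.40, 0 and 0 CPM in WT ones. It had 53.7, 13.5, 0 and 0 CPM in SCAP cKO lung CCR6-CD69- libraries, against 95.02, 27.9, 42.5 and 0.838 CPM in WT ones. It had 283, 344, 265 and 22.5 CPM in SCAP cKO circulating libraries, against 107, 56.1, 17.8 and 48.5 CPM in WT ones. Circulating libraries were above lung CCR6+CD69+ libraries without overlap in both genotypes, and a count of 0 allows up to 1.44 CPM in the lung CCR6+CD69+ libraries with none.

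**Figure D4:**
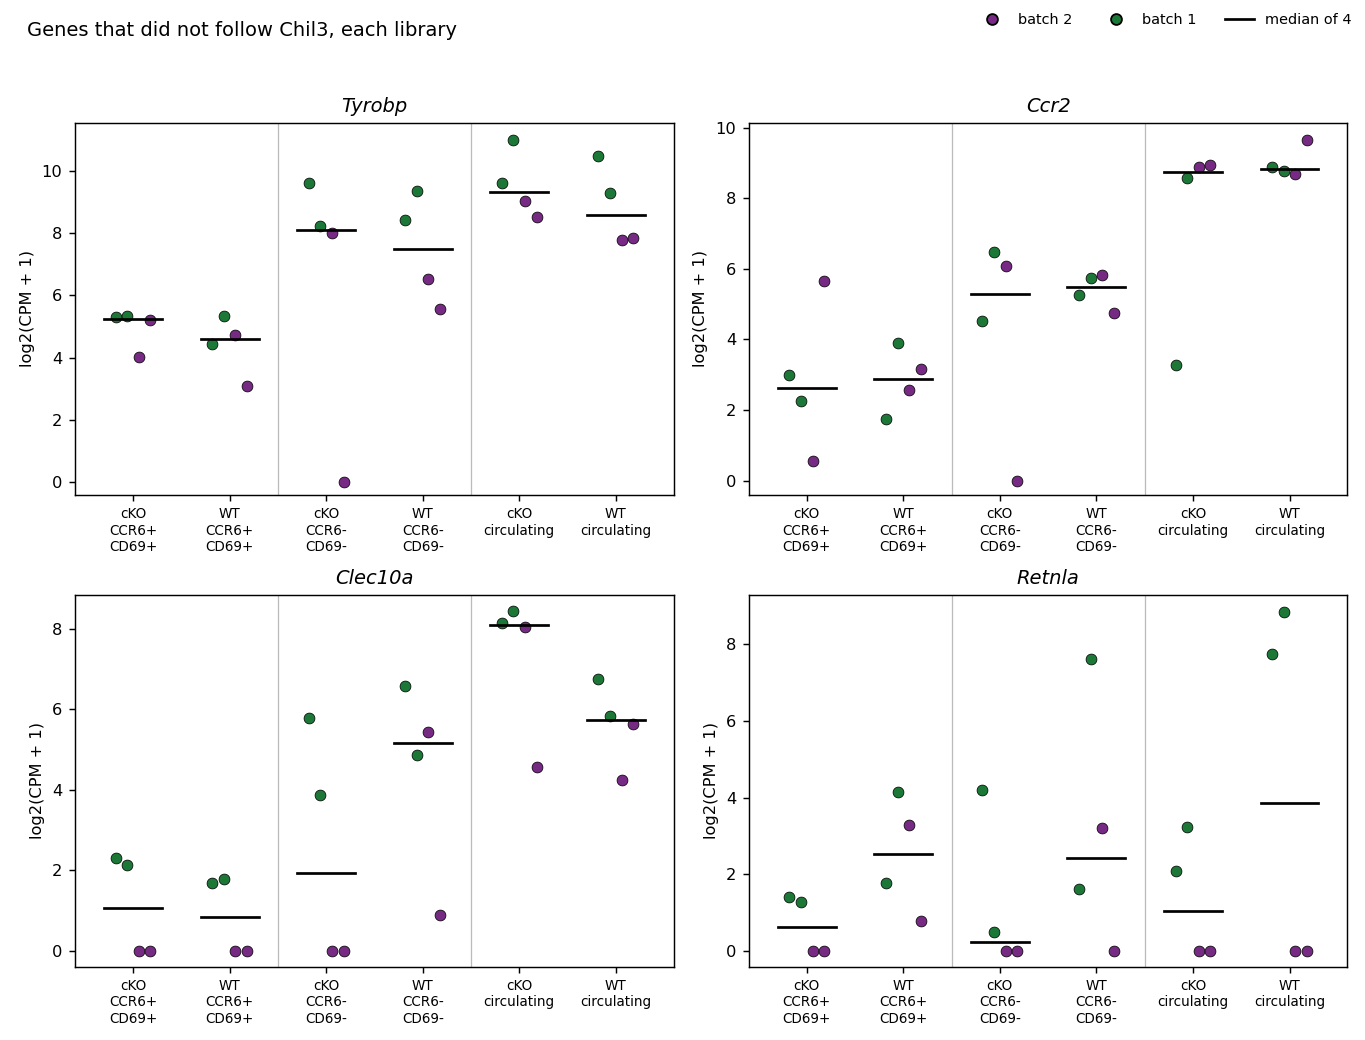
Level of Tyrobp, Ccr2, Clec10a and Retnla in each library as log2(CPM + 1) by group, SCAP cKO left of WT within each sorted population, with replicates 1 to 4 from left to right, batch 2 in purple, batch 1 in green and a bar at the median of 4 libraries. Tyrobp, Ccr2 and Clec10a are lowest in lung CCR6+CD69+ and highest in circulating groups (Tyrobp medians 37.1 and 648 CPM in SCAP cKO, 23.1 and 428 CPM in WT), and Retnla is at 0 in 9 of 12 batch 2 libraries.

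The 6 comparisons of populations within a genotype asked which genes separate the sorted subsets, tested with edgeR's quasi-likelihood test on all 24 libraries with group and batch as terms (6779 genes, Benjamini-Hochberg adjusted p under 0.05). In lung CCR6+CD69+ against circulating libraries 3 of 8 members were lower in each genotype and none was higher. The share of all genes called was 1.53% in SCAP cKO and 1.18% in WT. In SCAP cKO, Tyrobp was lower with a log2 fold change of -4.74 ± 0.73 (SE, edgeR adjusted p 1.40e-05), Clec10a with -8.08 ± 1.57 (edgeR adjusted p 8.17e-04) and Ccr2 with -4.65 ± 1.05 (edgeR adjusted p 0.00489). In WT, Tyrobp was lower with -4.44 ± 0.72 (edgeR adjusted p 6.35e-05), Ccr2 with -6.18 ± 1.12 (edgeR adjusted p 3.23e-04) and Clec10a with -6.64 ± 1.48 (edgeR adjusted p 0.00580). The median log2 fold change of the 8 was -2.22 in SCAP cKO and -1.42 in WT, beside -0.01 and 0.09 over all genes tested in the same order. Fitted within batches, Tyrobp's fold change in SCAP cKO was -4.02 for batch 2 and -5.24 for batch 1, and in WT -3.68 and -5.23 in the same order. With 2 libraries a group, batch 2 alone called no member in either genotype. Leaving out single libraries ended 2 of these calls, Ccr2 in SCAP cKO without lung CCR6+CD69+ replicate 2 (edgeR adjusted p 0.0512) and Clec10a in WT without lung CCR6+CD69+ replicate 4 (edgeR adjusted p 0.0508).

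In lung CCR6+CD69+ against lung CCR6-CD69- libraries, Tyrobp was lower in both genotypes, by a log2 fold change of -2.98 ± 0.67 in SCAP cKO (edgeR adjusted p 0.0183) and -2.98 ± 0.68 in WT (edgeR adjusted p 0.0251). In SCAP cKO it was the only member called, beside 0.457% of all genes, and in WT 2 of 8 members were called, beside 0.295%. The second was Clec10a, with -6.04 ± 1.45 (edgeR adjusted p 0.0392). All 8 fold changes were below 0 in both genotypes, with a median of -3.05 in SCAP cKO and -2.38 in WT, beside 0.26 and -0.02 over all genes in the same order. Without the 2 Chil3-led libraries, both of which are lung CCR6-CD69-, Tyrobp was -2.63 in SCAP cKO (edgeR adjusted p 0.0635) and -2.71 in WT (edgeR adjusted p 0.0725), so neither call held, while Clec10a in WT was -6.44 (edgeR adjusted p 0.0306). Tyrobp's call in SCAP cKO also ended without lung CCR6+CD69+ replicates 1, 2 or 3 or CCR6-CD69- replicates 1 or 3, and in WT without CCR6+CD69+ replicates 1, 2 or 4 or CCR6-CD69- replicates 1, 2 or 3 (edgeR adjusted p up to 0.271). Clec10a's call in WT ended without any of 9 libraries, namely WT CCR6+CD69+ replicates 1 to 4, WT CCR6-CD69- replicates 1 and 3, WT circulating replicate 1 and SCAP cKO circulating replicates 1 and 2 (edgeR adjusted p up to 0.338). Within batches, Tyrobp was -2.29 in batch 2 and -3.79 in batch 1 in SCAP cKO, and -1.99 and -3.97 in the same order in WT, and batch 2 alone called neither.

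Chil3, Lyz2, Ctsd and Cd68 passed edgeR's test in none of the comparisons, although Chil3 had medians of 306 CPM in SCAP cKO lung CCR6+CD69+ and 2764 CPM in SCAP cKO lung CCR6-CD69- libraries. In SCAP cKO lung CCR6+CD69+ against CCR6-CD69- libraries all 4 had an unadjusted edgeR p under 0.05, where the share of all genes is not given here. DESeq2 called 5 members in that comparison, these 4 and Tyrobp, beside 5.04% of genes by that tool. DESeq2 gave Chil3 -4.32 ± 1.41 (DESeq2 adjusted p 0.0472) and Cd68 -3.59 ± 0.94 (DESeq2 adjusted p 0.00727). Chil3 averaged 630 ± 855 CPM in the first of these groups and 9720 ± 15276 CPM in the second (SD, n = 4 each), so the SD exceeded the mean in both. Replicate 1 of the second group, at 32558 CPM, carries its mean, and DESeq2 was not run without it.

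In lung CCR6-CD69- against circulating libraries edgeR called 0 of 8 members in SCAP cKO, beside 0.31% of all genes, and 0 of 8 in WT, beside 0.177%. At an unadjusted edgeR p under 0.05 there were 3 in SCAP cKO (Ccr2, Clec10a and Tyrobp) and 2 in WT (Ccr2 and Tyrobp), all lower in lung. The share of all genes under that unadjusted p is not given here, so these counts cannot be weighed against it. DESeq2 called 2 in SCAP cKO, Ccr2 at -2.81 ± 0.92 (DESeq2 adjusted p 0.0341) and Clec10a at -4.82 ± 1.13 (DESeq2 adjusted p 0.00141), beside 8.15% of genes. It called 1 in WT, Ccr2 at -3.65 ± 0.90 (DESeq2 adjusted p 0.00792), beside 1.92%. Chil3, Lyz2, Ctsd, Cd68 and Retnla passed neither test, and their medians did not all lie on 1 side. Chil3 was at a median of 2764 CPM in SCAP cKO lung CCR6-CD69- and 742 CPM in SCAP cKO circulating libraries, and 2312 and 999 CPM in the same order in WT. Ctsd had medians of 519 and 627 CPM in SCAP cKO and 1184 and 888 CPM in WT, Cd68 131 and 99.4 CPM in SCAP cKO and 127 and 202 CPM in WT, in the same order. Retnla had medians of 0.211 and 1.64 CPM in SCAP cKO and 5.16 and 106 CPM in WT, where circulating replicates 3 and 4 had none. Its edgeR log2 fold change was 0.32 ± 1.70 in SCAP cKO and -0.40 ± 7.48 in WT, so no side can be given for it.

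Markers of other cells moved with Tyrobp, Ccr2 and Clec10a. Natural killer markers without the members summed to 6.25 to 126 CPM in SCAP cKO lung CCR6+CD69+ and 2692 to 4547 CPM in SCAP cKO circulating libraries, and to 38.1 to 76.5 and 1844 to 3876 CPM in the same order in WT. Of 14 tested on that list, Tyrobp included, 13 were lower in lung CCR6+CD69+ against circulating libraries in each genotype. Plasmacytoid dendritic cell markers without Tyrobp summed to 1684 to 2896 CPM in SCAP cKO lung CCR6+CD69+ and 4619 to 8701 CPM in SCAP cKO circulating libraries, and 8 of 12 tested, Tyrobp included, were lower in each genotype. Among them Pltp, the phospholipid transfer protein gene, was lower by -4.68 ± 0.94 in SCAP cKO (edgeR adjusted p 0.00133) and -4.65 ± 0.94 in WT (edgeR adjusted p 0.00155). Fcer1g was lower by -4.38 ± 0.84 in SCAP cKO (edgeR adjusted p 7.58e-04) and -4.02 ± 0.84 in WT (edgeR adjusted p 0.00210). T cell markers summed to 473 to 808 CPM in SCAP cKO lung CCR6+CD69+ and 824 to 2859 CPM in SCAP cKO circulating libraries, and to 425 to 546 and 1251 to 1603 CPM in the same order in WT, without overlap in either genotype. Of 9 tested T cell markers 8 had fold changes below 0 in each genotype (median -2.41 in SCAP cKO and -3.43 in WT), of which edgeR called Cd4 in both, and DESeq2 called 3 in SCAP cKO and 1 in WT. Of 11 conventional dendritic cell markers edgeR called Clec10a and Irf8 in both, and DESeq2 called 2 in SCAP cKO and 4 in WT. The share of all genes that DESeq2 called in these comparisons is not given here. Summed B cell identity genes went the opposite way, again without overlap. They had 26642 to 37568 CPM in SCAP cKO lung CCR6+CD69+ and 13884 to 22686 CPM in SCAP cKO circulating libraries, and 26230 to 40473 and 13461 to 24422 CPM in the same order in WT. Single genes of that list were split. EdgeR called H2-Aa higher in WT (1.34 ± 0.31, edgeR adjusted p 0.00999) and Cd74 higher in SCAP cKO (1.06 ± 0.27, edgeR adjusted p 0.0195). Spib, also on the plasmacytoid list, was called lower in SCAP cKO (-2.26 ± 0.49, edgeR adjusted p 0.00313) and in WT (-1.76 ± 0.48, edgeR adjusted p 0.0451). The part of these cells in the members' differences was not tested.

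Few genes of the alveolar macrophage, monocyte and type 2 lists were called between populations. Of 14 tested alveolar macrophage genes, Chil3 included, edgeR called 0 in each of the 6 population comparisons. Those at an unadjusted edgeR p under 0.05 numbered 1 to 4, and the share of all genes under it is not given here. DESeq2 called 0 in 5 of the 6 comparisons and 3 in SCAP cKO lung CCR6+CD69+ against CCR6-CD69- libraries, beside 5.04% of genes by that tool. In that comparison 9 of the 14 fold changes were below 0 (median -2.62, beside 0.26 over all genes), and in WT 11 of 14 (median -2.01, beside -0.02). Of 13 tested monocyte genes edgeR called Ccr2, lower in lung CCR6+CD69+ against circulating libraries in both genotypes, and Sirpa, which encodes a receptor for CD47, lower in SCAP cKO lung CCR6+CD69+ against both other SCAP cKO populations. Summed with the members, the 17 monocyte genes with a row ran from 961 to 2096 CPM in WT lung CCR6+CD69+ and from 2257 to 3120 CPM in WT circulating libraries, which did not overlap, whereas without the members those ranges did overlap. Of 13 tested type 2 myeloid genes edgeR called Clec10a in the 3 population comparisons named above and no other. DESeq2 called 3 of the 13 in WT lung CCR6+CD69+ against circulating libraries, where its share of all genes is not given here. It called 2 in SCAP cKO lung CCR6+CD69+ against CCR6-CD69-, beside 5.04% of genes, and 3 in SCAP cKO lung CCR6-CD69- against circulating ones, beside 8.15%. Of 14 tested lysosomal genes 1, the ceramidase gene Asah1, was lower in SCAP cKO lung CCR6+CD69+ against CCR6-CD69- libraries, with -3.78 ± 0.93 (edgeR adjusted p 0.0332).

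Retnla differed most between batches. It was counted in 3 of 12 batch 2 libraries, with at most 8.73 CPM and 45 counts in all, and in 12 of 12 batch 1 libraries, with 0.421 to 457 CPM and 1001 counts. It had 3.29, 8.35, 0 and 0 CPM in SCAP cKO circulating libraries, against 213, 457, 0 and 0 CPM in WT ones. It had 17.2, 0.421, 0 and 0 CPM in SCAP cKO lung CCR6-CD69- libraries, against 2.07, 194, 8.24 and 0 CPM in WT ones. In lung CCR6+CD69+ libraries it had 1.64, 1.43, 0 and 0 CPM in SCAP cKO, against 2.45, 16.8, 8.73 and 0.723 CPM in WT.

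Batch 2 was lower than batch 1 for 3 of 8 members, beside 7.82% of all genes called in that comparison. The log2 fold changes were -5.65 ± 1.29 for Retnla (edgeR adjusted p 0.00171), -3.19 ± 0.78 for Clec10a (edgeR adjusted p 0.00399) and -2.16 ± 0.39 for Tyrobp (edgeR adjusted p 4.25e-05), beside a median of -0.39 over all genes. These 3 calls held in each of 24 fits that left out 1 library. Clec10a was counted in 6 of 12 batch 2 libraries and 12 of 12 batch 1 libraries. Chil3, Lyz2, Ctsd, Cd68 and Ccr2 were not called, and Ccr2 had 0 to 809 CPM in batch 2 and 2.33 to 474 CPM in batch 1. Both batches held 2 libraries of every group, so batch and group can be told apart in the fit. The labels do not say what the batch was.

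SCAP genotype separated none of the 8 genes in any population by edgeR, which called 0% of all genes in each of the 3 genotype comparisons. At an unadjusted edgeR p under 0.05 there was 1 member in each, Retnla, lower in SCAP cKO (p 0.00568, 0.0495 and 0.0201 for CCR6+CD69+ and CCR6-CD69- lung cells and circulating cells, edgeR adjusted p 1, 0.676 and 0.426). The share of all genes under that unadjusted p is not given here. DESeq2 called 0 members in each genotype comparison, beside 0.0738% of genes in lung CCR6+CD69+, 1.15% in lung CCR6-CD69- and 3.4% in circulating libraries. In batch 1 Retnla had 3.29 and 8.35 CPM in SCAP cKO circulating libraries, against 213 and 457 CPM in WT ones, and in batch 2 it had no count in either group. In both lung populations the genotypes' ranges overlapped.

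Whether the genotype difference itself differed between populations was also tested. EdgeR called 0 of 8 members and 0% of all genes in each of the 3 such differences, with 0, 0 and 1 members at an unadjusted p under 0.05. The 1 was Clec10a in lung CCR6-CD69- minus circulating (edgeR adjusted p 0.443). How many of all genes lay under that unadjusted p is not given here. DESeq2 called 0 members in each, beside 0.0885% of genes for lung CCR6+CD69+ minus CCR6-CD69-, 0.451% for lung CCR6+CD69+ minus circulating and 1.57% for lung CCR6-CD69- minus circulating. Clec10a had 22.5 to 344 CPM in SCAP cKO and 17.8 to 107 CPM in WT circulating libraries, and 0 to 53.7 CPM in SCAP cKO and 0.838 to 95.02 CPM in WT lung CCR6-CD69- libraries.

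**Figure D5:**
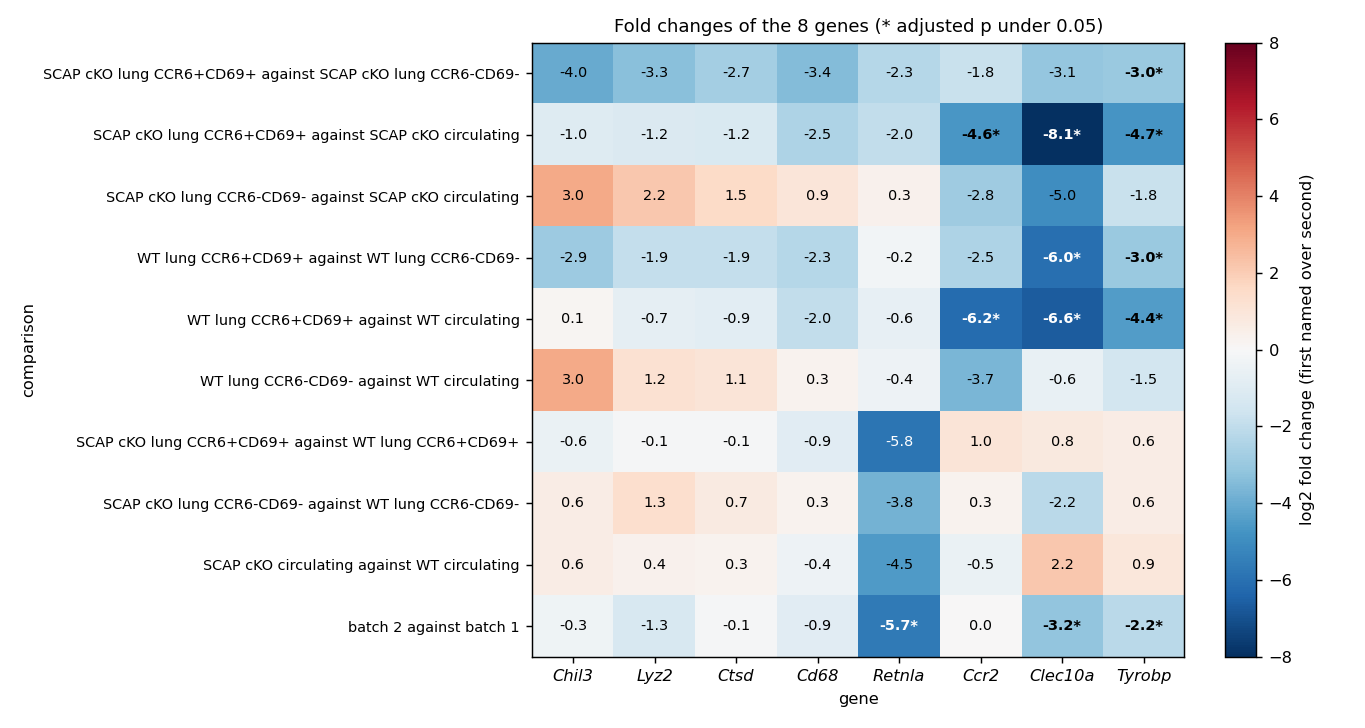
Log2 fold changes of the 8 genes (columns) in the 6 population comparisons, the 3 genotype comparisons and the batch comparison (rows), first named group over second, from edgeR; blue is lower, red is higher in the first named, and bold values with a star passed the test (adjusted p under 0.05). The starred cells are Tyrobp, Clec10a and Ccr2 in comparisons of lung CCR6+CD69+ with the other populations and Retnla, Clec10a and Tyrobp in batch 2 against batch 1.

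Close relatives of the members were rarely counted where they had a row. Mgl2, the relative of Clec10a, had no row, so reads it may share with Clec10a could not be looked at. Lyz1, the second lysozyme gene of the mouse, and Retnlb had 0 counts in all 24 libraries. Chil4, a near copy of Chil3 that could share its reads, had 30 counts in WT lung CCR6+CD69+ replicate 2 and 1 count in each of 2 others, so nearly all reads counted to the pair were counted to Chil3. Retnlg, a neutrophil relative of Retnla, had 121 CPM in SCAP cKO circulating replicate 3, the library with 1 Chil3 count, and at most 5.06 CPM in the other 23. How reads shared between such copies were assigned is not given in the sources used here.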

How the data were processed

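Polyadenylated RNA of sorted B cells was made into libraries with a kit adapted to low input, per the labels' protocols. The deposited table holds whole-number counts per gene symbol for 24 libraries, summed by the authors and not normalized. FastQC, STAR, Salmon and mm39 are named in the submitters' processing notes, and how each was used, strand and multiple mapping are not given in the sources used here. CPM is a gene's count over its library's total times 1e6. Depth was 129025 to 8566243 counts, so 3 counts stand for 0.350 to 23.3 CPM. Groups and batches came from the labels, 6 groups of 4 with 2 libraries of each in each batch.

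Fold changes came from edgeR 4.0.16 (R 4.3.3) with filterByExpr, TMM factors, robust quasi-likelihood and terms for group and batch, which kept 6779 genes, with Benjamini-Hochberg adjustment over all of them and an SE of the absolute log2 fold change over the square root of F. The fit was tried on simulated data with large changes placed only in abundant genes and without a batch effect. That trial does not cover changes in genes of few counts. The coefficient of variation from the common dispersion was 1.10. Relations to Chil3 used log2 CPM (prior count 2) and permutation tests in scipy 1.17.1. Genes were named by rule, the 8 members and their near copies, genes among the 5 most like each of 5 members, and up to 3 of the most abundant genes of a marker list. Outside it, Marco, Siglecf, Mrc1, Lpl, Asah1 and Sirpa were chosen after their values were seen, as were the fold changes given for genes other than the 8. The B cell list genes Cd74, H2-Aa and Spib were also named after their values were seen. Alternatives were DESeq2 1.42.0, other scaling, filter and batch terms, single batches, blocks, and leaving out libraries. The genes and the 16 lists were chosen with earlier results of these data known. Identical pairs of libraries numbered 0 (highest r 0.973).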

Additional observations from a re-analysis of the deposited data

Results flagged for a closer look

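Of 48 sets of 4 libraries (8 genes in 6 groups), 16 held 1 library far from the other 3 by Dixon's test on CPM. For independent sets of normally distributed values, about 1 in 20, or 2.4, would be flagged. CPM was skewed and several of these genes rose in the same libraries, so 16 cannot be weighed against that number. SCAP cKO lung CCR6-CD69- replicate 1 stood out in 4 genes, with 32558 CPM of Chil3 (its group's others reached 3782), 13293 CPM of Lyz2, 7573 CPM of Ctsd and 17.2 CPM of Retnla. WT lung CCR6-CD69- replicate 2 also stood out in 4, with 28598 CPM of Chil3 (the others reached 3503), 5551 CPM of Lyz2, 894 CPM of Cd68 and 194 CPM of Retnla. SCAP cKO lung CCR6+CD69+ replicate 4 stood out in 3, with 1895 CPM of Chil3, 933 CPM of Ctsd and 49.7 CPM of Ccr2, and WT lung CCR6+CD69+ replicate 3 in Chil3, with 2599 CPM. The other 4 were low Tyrobp in SCAP cKO lung CCR6+CD69+ replicate 3 (15.4 CPM, the others 35.9 to 39.5), Cd68 in SCAP cKO circulating replicate 1 (219 CPM), Lyz2 in WT circulating replicate 2 (1348 CPM) and Ccr2 in WT circulating replicate 4 (809 CPM). Of the 16, 15 were the highest of their group.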

How the results depend on the processing

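The 12 called log2 fold changes were followed through up to 36 settings each, which gave 413 values. Of these, 364 kept direction and call, 49 kept direction alone and 0 reversed. In 24 settings 1 library was left out, often from neither of the groups compared, so the total leans towards calls kept. Clec10a in WT lung CCR6+CD69+ against CCR6-CD69- kept its call in 21 of 35. TMM scaling moved none of 48 group means by over 1 SD. Scaling by DESeq2 shifted the median log2 fold change of all genes by -0.22 in SCAP cKO lung CCR6+CD69+ against CCR6-CD69- and by 0.26 in SCAP cKO lung CCR6-CD69- against circulating, and relative log expression factors by -0.19 and 0.19 in the same order. Members called in SCAP cKO lung CCR6+CD69+ against CCR6-CD69-, 1 as reported, numbered 5 by DESeq2, 5 with no filter, 2 in batch 1 alone or without libraries under 500000 counts, and 0 in batch 2 alone, with no batch term, with only the groups compared or without the Chil3-led libraries. In WT, 2 as reported, they numbered 5 with no filter, 1 with only the groups compared or without the Chil3-led libraries, and 0 in batch 2 alone or with no batch term. Leaving out 1 library gave 0 to 2 in both. In lung CCR6+CD69+ against circulating, 3 as reported in both, they numbered 0 in batch 2 alone in both and 1 in WT with no batch term. There Ccr2 in SCAP cKO also lost its call in batch 1 alone (edgeR adjusted p 0.0688) and with only the groups compared (0.101), and Clec10a in WT in the same settings (0.104 and 0.0504). In lung CCR6-CD69- against circulating, 0 as reported, they numbered 2 in SCAP cKO and 1 in WT by DESeq2, 3 and 2 with no filter, and 1 in WT with only the groups compared. The share of all genes called is given above for these DESeq2 counts and is not given for the other settings. A count of 0 in such a setting therefore does not say whether the members differed from other genes. With only the groups compared, Clec10a was filtered out between the WT lung populations and has no value. The cause was not tested. Depth limits most the library of 129025 counts, where a count of 0 allows 23.3 CPM.

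Replicate numbers carry the labelled batch, a term of the fit. Deviations of same-numbered libraries from their group means, batch included, correlated at -0.05 to 0.23, and from the group and batch fit at -0.20 to 0.07, none over 0.1. The pairs of WT lung libraries stayed at 0.05 to 0.07 after the batch. Low correlations of single libraries cannot show whether those of the same number shared a mouse or a sort. With the replicate block members called numbered 0 in SCAP cKO and 1 in WT for lung CCR6+CD69+ against CCR6-CD69-, and with a block by the number in the sample description 1 in WT lung CCR6-CD69- against circulating. That second block ended 3 reported calls, Ccr2 in SCAP cKO lung CCR6+CD69+ against circulating (edgeR adjusted p 0.232), and against lung CCR6-CD69- Tyrobp in SCAP cKO (0.260) and Clec10a in WT (0.214). The labels do not say whether its numbers mark mice.

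For Ctsd, r with Chil3 was 0.187 in batch 2, 0.4927 with a prior count of 0.5, where it no longer passed (adjusted permutation p 0.0587), and 0.2524 without the Chil3-led libraries, a setting added after seeing the data. For Cd68 it was 0.8492 in batch 1. The sign turned for Ccr2 in batch 2 (-0.0979), for Clec10a without the 2 libraries of least Chil3 (0.053) and in batch 1 (0.317), and for Tyrobp in batch 2 (-0.2422) and without the Chil3-led libraries (-0.0835).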

Other observations

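Neutrophil markers, 14 of 18 with a row, summed to 1732 CPM in SCAP cKO lung CCR6-CD69- replicate 1 and 1212 CPM in WT lung CCR6-CD69- replicate 2, against a median of 285 and a maximum of 1808 CPM in the other 22 libraries. Lysosomal genes, 14 of 30 with a row and summed without Ctsd and Cd68, reached 23942 CPM in the SCAP cKO library and 15598 CPM in the WT one, against at most 9270 CPM in the others. Lpl, the lipoprotein lipase gene, was highest in the shallow SCAP cKO lung CCR6-CD69- replicate 4, with 2015 CPM, and had 593 CPM in the SCAP cKO and 751 CPM in the WT library led by Chil3.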
